A study of Mus musculus with 12 samples.

Results

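The 6 genes of the mouse sphingomyelin phosphodiesterase family that are described here are *Smpd1*, *Smpd2*, *Smpd3*, *Smpd4*, *Smpdl3a* and *Smpdl3b*. They were taken by symbol from RNA-Seq tables that listed 23284 genes in sorted osteoblasts and 24346 genes in MC3T3-E1 cells, and all 6 were listed in both. The family was chosen by measured values of these same libraries, because *Smpd3* was higher with *Slpi* overexpression and *Smpdl3b* was higher in both comparisons. The levels and differences of the 6 genes are therefore given as a description, without a *p*. Where members that met a rule are counted beside all genes, nothing is read from the counts.

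Sphingomyelin phosphodiesterases, or sphingomyelinases, cut sphingomyelin, a main lipid of the outer leaflet of the cell membrane, into ceramide and phosphocholine. Ceramide is a signaling lipid and the start of the route to sphingosine-1-phosphate, while phosphocholine can be split further to release phosphate. In bone, loss of the neutral sphingomyelinase encoded by *Smpd3* is known to cause skeletal deformity and poor mineralization in mice, and the phosphatase PHOSPHO1 is known to release phosphate from phosphocholine in matrix vesicles, the membrane sacs in which mineral first forms.

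The study asked how parathyroid hormone (PTH), which builds bone when given intermittently, acts on osteoblasts, and what its induced gene *Slpi*, encoding secretory leukocyte protease inhibitor, does in them. In the first experiment, 3 vehicle and 3 PTH libraries were made from female Col2.3-ECFP mice, in which a fragment of the collagen type I promoter drives a cyan fluorescent protein in cells of the osteoblast lineage. Treatment began at 12 weeks of age and consisted of PTH(1-34) at 40 µg/kg on 5 days of each week, or vehicle, for 3 weeks. Live cells that were 7AAD-, Lin-, CD45- and ECFP+ were sorted 24 h after the last injection, so both groups shared the reporter and the gate. In the second experiment, 3 mock and 3 *Slpi* libraries were made from MC3T3-E1, an osteoblast precursor line from mouse calvaria. Both carried a pMX retroviral vector with puromycin resistance, which was empty in mock cells and held mouse *Slpi* in the overexpressing cells. MC3T3-E1 is a single immortal line, and cells were harvested before confluence, so no mineralizing culture was sampled. Values are FPKM, the fragments counted on a gene corrected for transcript length and sequencing depth, and differences are given on the log2(FPKM + 1) scale with the standard error of the limma model.

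*Slpi* followed the labels of all 12 libraries. Its FPKM was 1.64, 2.38 and 2.62 in vehicle and 37.5, 19.8 and 27.2 in PTH osteoblasts, and 377, 396 and 386 in mock and 2105, 1973 and 1848 in *Slpi* MC3T3-E1 cells. The sorted libraries held the osteoblast markers *Sp7* at 59.2 to 116 FPKM and *Ibsp* at 1153 to 1814 FPKM, whereas *Col1a1* and *Col1a2* were listed at 0 in vehicle replicate 3 and in all 3 PTH libraries and at 24170 to 26655 FPKM in vehicle replicates 1 and 2, so no level was read from them. Marker genes of other cells were also detected in the sorted libraries. The summed FPKM of 10 neutrophil markers was 365 to 458 in vehicle and 674 to 2286 in PTH libraries, with 6 of the 10 higher and 0 lower at an adjusted *p* under 0.05. Over all genes tested with PTH, 6.38% were higher and 8.85% lower by this limit. For 9 macrophage markers the sum was 45.3 to 74.3 in vehicle and 31.7 to 115 in PTH libraries, with 0 of the 7 tested passing in either direction. For 8 T and NK cell markers it was 91.8 to 141 and 0.608 to 20.5, with 4 of 5 tested lower. *Cd3g* gave most of the vehicle sum, at 60.4 to 97.5 FPKM, beside 15.4 to 21.4 for *Cd3e* and 9.82 to 16.3 for *Lck*. *Cd3d*, among the 4, was at most 2.79 FPKM and reached an FPKM of 1 in vehicle libraries alone. It thus entered the test through the group where it was high, and nothing is read from its call. *Nkg7*, the tested marker that did not pass, was 2.63 to 4.40 FPKM with vehicle and 0.369 to 8.09 with PTH. *Cd4*, *Cd8a* and *Gzma* were at most 0.39. The osteoclast markers, of which *Ctsk* gave most of the sum, came to 144 to 162 FPKM in vehicle and 253 to 292 in PTH libraries. *Ctsk*, also well expressed in MC3T3-E1 cells at 75.3 to 81.9 FPKM, was higher with PTH (adjusted *p* = 0.016), *Acp5* did not pass (adjusted *p* = 0.085), and *Calcr*, *Ocstamp* and *Dcstamp* were at most 0.48 FPKM. Erythroid markers summed to 411 to 480 FPKM in vehicle and 522 to 599.5 in PTH libraries, with 0 of 5 passing in either direction. Heart muscle genes summed to 1892 FPKM in PTH replicate 2 and to at most 12.2 in the others. In MC3T3-E1 cells the neutrophil and macrophage sums stayed between 0.986 and 3.87 FPKM, with *S100a9*, *Elane*, *Ngp*, *Adgre1*, *Fcgr1* and the *C1q* genes at 0 in all 6 libraries, and the late osteoblast gene *Bglap* was low, at 1.05 to 2.85 FPKM. The part of these other cells in the values of the family in sorted osteoblasts was not tested. In such bulk samples, fewer cells of a type and less RNA per cell cannot be told apart.

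On the mouse genome (mm10, GENCODE M21), the 6 genes lie at separate places. *Smpd1* spans chr7:105554360-105558389 on the plus strand, *Smpd2* chr10:41485642-41490369 on the minus strand and *Smpd3* chr8:106252548-106337988 on the minus strand. *Smpd4* spans chr16:17619354-17644828 on the plus strand, *Smpdl3a* chr10:57794335-57811830 on the plus strand and *Smpdl3b* chr4:132732966-132757252 on the minus strand. *Smpd3* shares 247 bases at its end with *Prmt7* on the other strand, contains the opposite-strand lincRNA *Gm10629* and lies within the same-strand lincRNA *Gm26786*. *Smpd2* shares 1391 bases with *Mical1* on the other strand. The kit used for the sorted osteoblasts does not mark the strand, so reads in these shared stretches cannot be told apart there. Strand alone does not tell reads of *Smpd3* from those of *Gm26786* in either experiment.

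Promoter sequences of *Smpd1*, *Smpd2*, *Smpd4* and *Smpdl3b* were at hand in a RefSeq table on build GRCm38.p6. *Smpdl3b*, *Smpd4* and *Smpd1* are shown because *Smpdl3b* was higher in both experiments while *Smpd4* and *Smpd1* went opposite ways between them. Each line runs 5′ to 3′ towards the gene's start, at chr4:132757253-132757421 (minus strand), chr16:17619104-17619353 (plus strand) and chr7:105554110-105554359 (plus strand), all upstream of the annotated gene.
Smpdl3b: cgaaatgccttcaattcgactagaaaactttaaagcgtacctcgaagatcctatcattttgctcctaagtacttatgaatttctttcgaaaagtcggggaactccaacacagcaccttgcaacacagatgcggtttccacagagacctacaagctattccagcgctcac
Smpd4: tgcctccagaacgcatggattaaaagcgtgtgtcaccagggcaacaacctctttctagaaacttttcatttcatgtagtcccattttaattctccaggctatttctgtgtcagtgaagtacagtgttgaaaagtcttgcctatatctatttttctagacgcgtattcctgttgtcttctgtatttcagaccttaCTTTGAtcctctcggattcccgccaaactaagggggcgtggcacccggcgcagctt
Smpd1: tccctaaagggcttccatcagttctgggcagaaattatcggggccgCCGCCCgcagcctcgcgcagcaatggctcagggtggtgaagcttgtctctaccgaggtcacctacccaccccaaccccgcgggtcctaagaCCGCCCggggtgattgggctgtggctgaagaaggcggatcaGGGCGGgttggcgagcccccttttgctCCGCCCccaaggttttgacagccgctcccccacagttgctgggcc
Capitals mark matches, on either strand, to any of 4 short motifs: TGACG, the half-site bound by cAMP response factors, ACCACA, a RUNX core, GGGCGG, a GC box, and CTTTGA, a TCF/LEF core. TGACG and CTTTGA can overlap by the letters they share. In the full window of 250 bases before the start, *Smpd1* and *Smpd2* held 4 GC boxes each, and *Smpd4* and *Smpdl3b* held 0. *Smpd4* held 1 CTTTGA. Of 32841 such windows of mouse genes, 32.7% held a GC box, 13.8% CTTTGA, 17.8% TGACG and 14% ACCACA, and the last pair had no match in any of the 4 family windows. The windows of *Smpd1* and *Smpd2* were GC-rich, at 64.8% and 66.4% G or C with 16 and 20 CpG, whereas those of *Smpd4* and *Smpdl3b* had 44.8% and 48.8% with 9 and 12 CpG. These matches are descriptions of letters, not of binding.

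In sorted osteoblasts the family was dominated by *Smpd3*, while in mock MC3T3-E1 cells *Smpd1* had the highest level and in *Slpi* cells *Smpd1*, *Smpdl3b* and *Smpd3* were of a like order. With PTH, *Smpdl3b* was 3.58-fold and *Smpd3* 1.498-fold of vehicle, and *Smpd4* was 0.549-fold. With *Slpi*, *Smpd3* was 21.3-fold and *Smpdl3b* 2.71-fold of mock, while *Smpd1*, *Smpd2* and *Smpdl3a* were 0.716- to 0.846-fold. Of the 13004 genes tested in osteoblasts, which reached an FPKM of 1 in any of the 6 libraries, 6.38% were higher and 8.85% lower with PTH at an adjusted *p* under 0.05, and 40.4% had groups that did not overlap. By the same rules 1 of the 6 family genes was higher (*Smpdl3b*), 1 was lower (*Smpd4*) and 5 did not overlap. Centring each library on its median moved the split over all genes from 830 higher and 1151 lower to 1050 higher and 878 lower, and the median difference over all genes from 0.01 to 0.10. Of the 11466 genes tested in MC3T3-E1 cells, 31.9% were higher and 28.9% lower with *Slpi*, and 67.1% did not overlap. All 6 family genes were counted there, 3 higher (*Smpd3*, *Smpd4* and *Smpdl3b*) and 3 lower (*Smpd1*, *Smpd2* and *Smpdl3a*), and all 6 did not overlap. The median difference of the 6 was 0.06 with PTH and -0.01 with *Slpi*. Since these contrasts chose the family, nothing is read from its counts.

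**Figure D1:**
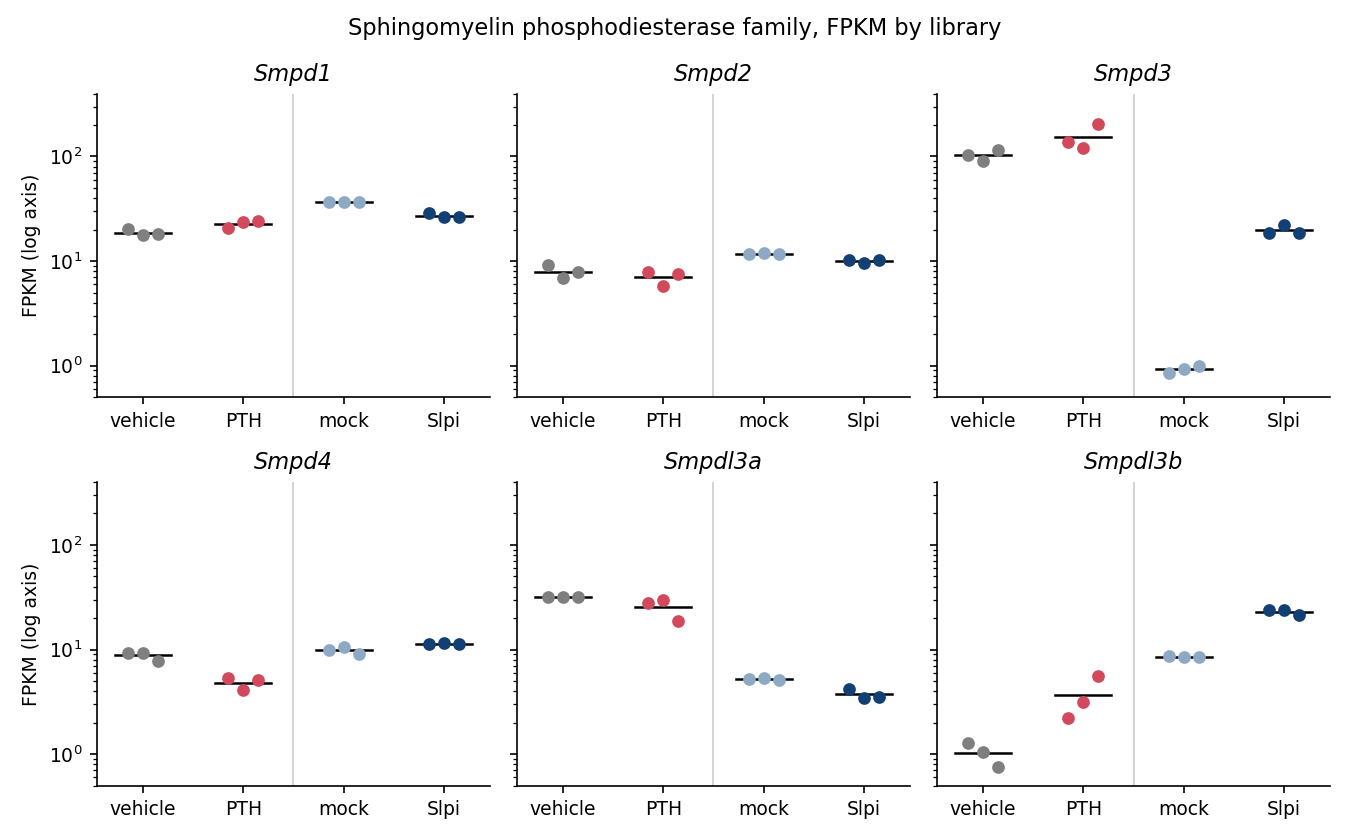
FPKM (log axis) of each family gene in the 3 libraries of each group, with the group mean as a bar, for the osteoblast experiment (vehicle, PTH) and the MC3T3-E1 experiment (mock, Slpi), which were normalized separately. *Smpd3* lay at 90.8 to 205 FPKM in osteoblasts, at 0.849 to 0.998 in mock and at 18.4 to 22.2 in *Slpi* cells, and *Smpdl3b* was higher in every PTH and every *Slpi* library than in its controls.

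The neutral sphingomyelinases act near neutral pH at the cell membrane, the Golgi, the endoplasmic reticulum and the nuclear envelope. Among them *Smpd3*, which encodes neutral sphingomyelinase 2, was the most abundant member in osteoblasts. Vehicle replicates 1 to 3 had 103, 90.8 and 115 FPKM, and the PTH replicates had 138, 119.7 and 205. The groups did not overlap, but PTH replicate 3 stood above the other PTH libraries. Means were 103 ± 12.1 and 154 ± 45.0 (SD, n = 3), a difference of 0.55 (SE 0.20), which was 0.32 without PTH replicate 3 and 0.71 without PTH replicate 2. These means placed *Smpd3* above 96.2% of the tested genes with vehicle and 97.0% with PTH. In mock MC3T3-E1 cells the same gene was near the bottom of the range, at 0.849, 0.934 and 0.998 FPKM, and with *Slpi* it stood at 18.6, 22.2 and 18.4 FPKM. The means were 0.927 ± 0.0747 and 19.7 ± 2.17 (SD, n = 3), a difference of 3.42 (SE 0.077). The level percentile among tested genes went from 2.0 to 63.8. *Smpd3* entered the test through its *Slpi* libraries alone, since no mock library reached an FPKM of 1. With a pseudocount of 0.1 the difference was 4.27. Even with *Slpi*, its FPKM stayed below that of every sorted osteoblast library, although the experiments were normalized separately and made with different cells.

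*Smpd2* encodes neutral sphingomyelinase 1 of the endoplasmic reticulum and nucleus and differed little. Its FPKM was 9.20, 6.84 and 7.80 with vehicle and 7.93, 5.73 and 7.60 with PTH, and the groups overlapped. The difference of -0.15 (SE 0.16) was smaller than its error, and it was -0.02 without PTH replicate 2 and -0.05 without vehicle replicate 1. In MC3T3-E1 cells *Smpd2* was 11.7, 11.95 and 11.6 in mock and 10.1, 9.58 and 10.2 in *Slpi* libraries, with every *Slpi* library below every mock library. This difference was -0.22 (SE 0.041).

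*Smpd4*, the neutral sphingomyelinase of the endoplasmic reticulum and nuclear envelope, went opposite ways. Vehicle libraries had 9.36, 9.32 and 7.75 FPKM, and PTH libraries 5.33, 4.07 and 5.10. The highest PTH library stayed below the lowest vehicle library, and the means of 8.81 ± 0.918 and 4.83 ± 0.672 (SD, n = 3) differed by -0.75 (SE 0.14). In MC3T3-E1 cells the values were 9.82, 10.5 and 9.09 with mock and 11.4, 11.5 and 11.4 with *Slpi*. Here the *Slpi* libraries were the higher ones, by 0.20 (SE 0.053).

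The acid sphingomyelinase of lysosomes is encoded by *Smpd1*, the gene mutated in Niemann-Pick disease types A and B. Its FPKM was 20.1, 17.6 and 18.2 with vehicle and 20.7, 23.5 and 24.2 with PTH. All PTH libraries were above all vehicle libraries, but the closest pair was 20.7 against 20.1, and the difference was 0.28 (SE 0.11). Mock MC3T3-E1 cells had a tight level of 36.6 in all 3 libraries, and *Slpi* cells had 28.6, 26.1 and 26.3. There *Smpd1* was lower with *Slpi*, with a difference of -0.43 (SE 0.041). Its direction thus differed between the experiments, as it did for *Smpd4*.

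*Smpdl3a* and *Smpdl3b* encode acid sphingomyelinase-like proteins, related to SMPD1 in sequence. SMPDL3A is a secreted and lysosomal phosphodiesterase known to act on nucleotides, and SMPDL3B is a membrane-anchored protein known to damp Toll-like receptor signaling in macrophages. *Smpdl3a* was 31.9, 31.6 and 31.8 FPKM with vehicle and 27.8, 29.5 and 18.7 with PTH. PTH replicate 3 was the lowest, and the difference of -0.34 (SE 0.17) was -0.145 without it. In MC3T3-E1 cells it was 5.18, 5.29 and 5.16 in mock and 4.23, 3.43 and 3.54 in *Slpi* libraries. All 3 *Slpi* values lay below the mock values, and the difference was -0.40 (SE 0.070).

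*Smpdl3b* was the least abundant member in vehicle osteoblasts, at 1.28, 1.04 and 0.749 FPKM, and stood at 2.199, 3.12 and 5.65 with PTH. The PTH libraries did not overlap the vehicle libraries but spread more widely, with means of 1.02 ± 0.264 and 3.66 ± 1.79 (SD, n = 3) and a difference of 1.14 (SE 0.28). Scaled by the relative depth of each library, its values lay near whole multiples of a common step, 14, 9 and 11 with vehicle and 27, 43 and 87 with PTH. This step was sought from the *Smpdl3b* values alone, with a tolerance of 0.15 step. If a step is 1 read, the vehicle values rest on few reads, but a step may stand for more than 1. In the same PTH libraries the neutrophil markers summed to 2286, 1919 and 674 FPKM and the macrophage markers to 115, 109 and 31.7, and their part in the level of *Smpdl3b* was not tested. In MC3T3-E1 cells *Smpdl3b* was 8.60, 8.43 and 8.52 with mock and 24.1, 23.9 and 21.2 with *Slpi*. Both groups were tight, and their means of 8.52 ± 0.0851 and 23.1 ± 1.61 (SD, n = 3) differed by 1.34 (SE 0.053).

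**Figure D2:**
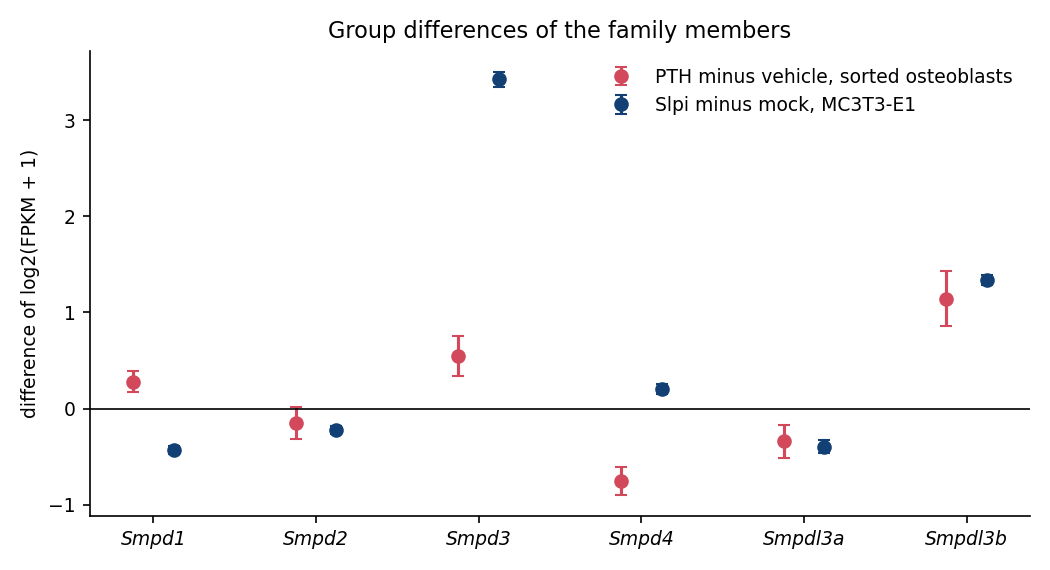
Difference of log2(FPKM + 1) for each family gene, PTH minus vehicle and Slpi minus mock, with the standard error of the limma model as bars (3 libraries per group). *Smpd3* and *Smpdl3b* were above 0 and *Smpd2* and *Smpdl3a* below 0 in both, whereas *Smpd1* and *Smpd4* had opposite signs.

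FPKM are scaled to transcript length, so the members can be set in order within a library. In vehicle osteoblasts the order of mean FPKM was *Smpd3*, *Smpdl3a*, *Smpd1*, *Smpd4*, *Smpd2* and *Smpdl3b*, with overlapping ranges for *Smpd4* and *Smpd2* alone among neighbours. In PTH osteoblasts *Smpd3* again came first, followed by *Smpdl3a* and *Smpd1*, whose ranges overlapped, then *Smpd2*, and last *Smpd4* and *Smpdl3b*, which overlapped as well. The order in mock MC3T3-E1 cells was *Smpd1*, *Smpd2*, *Smpd4*, *Smpdl3b*, *Smpdl3a* and *Smpd3*, with no overlap between neighbours. In *Slpi* cells *Smpd1* stayed first, *Smpdl3b* and *Smpd3* followed with overlapping ranges, and *Smpd4*, *Smpd2* and *Smpdl3a* came last. Thus *Smpd3* was first in both osteoblast groups and last in mock cells.

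The make-up of the family shows the same in shares of its summed FPKM. *Smpd3* made up 60.0% ± 3.03 of the sum with vehicle and 69.9% ± 6.41 with PTH, and 1.27% ± 0.110 with mock and 20.8% ± 1.98 with *Slpi* (SD, n = 3 each). The share of *Smpd1* was 50.3% ± 0.609 in mock and 28.5% ± 1.33 in *Slpi* cells (SD, n = 3), whereas in osteoblasts it was 10.9% and 10.7%. *Smpdl3b* went from 0.602% ± 0.168 to 1.63% ± 0.517 with PTH and from 11.7% ± 0.224 to 24.3% ± 0.845 with *Slpi* (SD, n = 3). Summed over the 6 genes, the FPKM was 171 ± 12.4 and 218 ± 42.8 in vehicle and PTH osteoblasts and 72.9 ± 0.846 and 94.9 ± 3.41 in mock and *Slpi* cells (SD, n = 3). The shares of the 6 genes are bound to each other, so a larger share of one lowers the others.

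**Figure D3:**
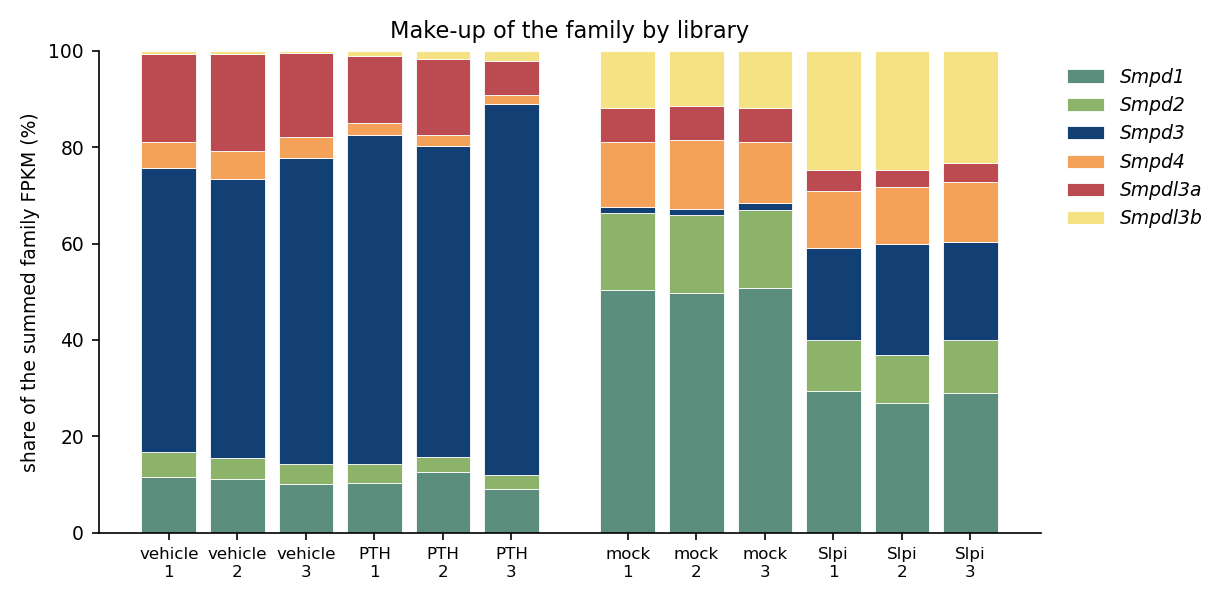
Share (%) of each family gene in the summed FPKM of the 6 genes, 1 stacked bar per library. *Smpd3* filled 57.8% to 77.0% of each osteoblast bar, 1.17% to 1.39% of each mock bar and 19.1% to 23.0% of each *Slpi* bar.

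The rest of the sphingolipid pathway was read from a list of 54 genes for making and breaking down sphingomyelin, ceramide, sphingosine-1-phosphate and glycosphingolipids. With PTH, 5 of the 46 tested genes were higher, 3 were lower and 38 did not pass the limma test at an adjusted *p* under 0.05, and the median difference was 0.05 against 0.01 over all genes. Over all genes 6.38% were higher and 8.85% lower. Those that fell were *Acer2*, *Ormdl1* and *Kdsr*, and among those that rose were *S1pr2*, *Hexa*, *Ormdl3* and *Psap*. *Acer2*, the alkaline ceramidase of the Golgi that turns ceramide into sphingosine, was 5.79, 7.21 and 4.62 FPKM with vehicle and 1.19, 1.25 and 0.140 with PTH. It had the largest difference of the list that passed, -1.93 (SE 0.30, adjusted *p* = 0.016). *Hexa*, a subunit of lysosomal hexosaminidase that trims gangliosides, was 58.8, 48.9 and 53.0 with vehicle and 97.9, 89.8 and 99.3 with PTH, a rise of 0.83 (SE 0.10, adjusted *p* = 0.014). *Psap*, the precursor of the saposins that help lysosomal enzymes of this route, rose by 0.48 (adjusted *p* = 0.026). *Ctsk* and the neutrophil markers were higher in the same libraries, as given above, and their part in these lysosomal genes was not tested. In the making of ceramide, *Ormdl3* and *Ormdl1*, both inhibitors of the first enzyme, went opposite ways. The rise of *Ormdl3* was 0.66 and the difference of *Ormdl1* -0.90 (adjusted *p* = 0.024 for both), and *Kdsr*, the reductase of the next step, differed by -0.62 (adjusted *p* = 0.040). *S1pr2*, a receptor for sphingosine-1-phosphate, rose by 0.85 (adjusted *p* = 0.045). None of the 3 genes for sphingomyelin synthesis passed, and the other sphingomyelinases were barely detected, with *Smpd5* at 0.145 FPKM at most and *Enpp7* at 0 in all 6 libraries. None of these calls held without vehicle replicate 1 or without vehicle replicate 2, when 1 and 0 genes of the whole table passed, although 3181 and 3053 had an unadjusted *p* under 0.05, and 1 higher and 1 lower call were left in the list without PTH replicate 1.

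The 54 genes moved in more numbers with *Slpi*, as did the whole table. Of 41 tested, 10 were higher, 15 lower and 16 did not pass, with a median difference of -0.06 against 0.00 over all genes. Over all genes 31.9% were higher and 28.9% lower, and the difference of the list from other genes was not tested. *Sgms2*, which encodes the sphingomyelin synthase of the cell membrane, had the largest difference. Its FPKM was 4.54, 5.15 and 5.06 with mock and 12.9, 14.3 and 12.6 with *Slpi*, a rise of 1.27 (SE 0.063, adjusted *p* = 3.004e-06). In the sorted osteoblasts *Sgms2* was 141 ± 11.4 with vehicle and 191 ± 38.8 with PTH (SD, n = 3), a difference of 0.42 that did not pass by limma (adjusted *p* = 0.11). Genes of sphingosine-1-phosphate changed in both directions. *Spns2*, its exporter, rose by 0.93, while *Sphk1*, the kinase that makes it, and *S1pr1*, a receptor, differed by -0.79 and -0.59 in the limma test, with adjusted *p* between 3.1e-06 and 1.4e-05. *Asah2*, the neutral ceramidase, and *Cers4*, a ceramide synthase, fell by 0.54 and 0.46, and *Cerk*, the ceramide kinase, and *Ormdl1* rose by 0.42 and 0.46, with adjusted *p* between 0.00016 and 0.0012 in the limma test. In glycosphingolipid synthesis and breakdown 0 of 11 tested genes were higher and 6 were lower, among them *Arsa*, the lysosomal arylsulfatase, at -0.70 (adjusted *p* = 1.2e-05). With PTH, 3 of 11 genes of this group were higher and 0 lower. Over all genes the shares were 31.9% higher and 28.9% lower with *Slpi* and 6.38% and 8.85% with PTH, and the difference of the group from other genes was not tested. *Psap* and *Ormdl1* passed in both experiments with opposite signs, whereas *Ormdl3* was higher in both.

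Phosphocholine, the second product of the sphingomyelinases, links them to mineralization, and 13 genes of phosphocholine handling and of mineral formation were listed for it. With PTH, 3 of the 12 tested were higher and 0 lower, beside 6.38% higher and 8.85% lower over all genes, and the median was 0.38 against 0.01. These were *Alpl*, the alkaline phosphatase of osteoblasts, by 0.60 (adjusted *p* = 0.040), *Ank*, an exporter that raises extracellular pyrophosphate, by 0.48 (adjusted *p* = 0.031), and *Slc20a1*, a phosphate transporter, by 0.45 (adjusted *p* = 0.033). *Phospho1* was 26.3, 24.7 and 28.8 FPKM with vehicle and 33.6, 31.1 and 44.6 with PTH. The groups did not overlap, but the difference of 0.42 (SE 0.15) did not pass (adjusted *p* = 0.10). *Enpp1*, which makes pyrophosphate, and *Slc20a2*, another phosphate transporter, differed by 0.37 and -0.09 and did not pass (adjusted *p* = 0.097 and 0.74). Of the 3 calls, 0 were left without vehicle replicate 1, vehicle replicate 2 or PTH replicate 1, 1 without vehicle replicate 3, and 0 when the trend of the variance was left out of the fit.

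With *Slpi*, 5 of 12 tested genes of this list were higher, *Phospho1* included, and 3 lower, beside 31.9% higher and 28.9% lower over all genes, shares near those of the list. *Phospho1* was 0.449, 0.288 and 0.180 FPKM with mock and 8.26, 10.4 and 8.08 with *Slpi*, a difference of 2.92 (SE 0.11). No mock library reached an FPKM of 1, so *Phospho1* entered the fit through its *Slpi* libraries alone and had to differ, and its difference is given as a description without a *p*. *Alpl* was 54.6, 50.4 and 52.8 with mock and 180, 175 and 168 with *Slpi*, a rise of 1.71 (SE 0.040, adjusted *p* = 6.4e-08). The smaller rises were those of *Slc20a1*, *Slc20a2* and *Chka*, a choline kinase, at 0.29 to 0.31. *Ank* differed by -0.01 and did not pass (adjusted *p* = 0.89), and *Enpp1* stayed below the limit for testing. *Pcyt1b*, *Chpt1* and *Slc44a1*, which serve the making of phosphatidylcholine and the uptake of choline, fell by 0.49, 0.38 and 0.29. *Alpl*, and *Phospho1* with the limit given above, changed at least 2-fold at an unadjusted *p* under 0.05. That rule called 0.750% of all tested genes higher and 0.384% lower with *Slpi*, and 1.24% higher and 4.35% lower with PTH. Its fold was taken on the log2(FPKM + 1) scale, where genes of low level need a larger change in FPKM. The paper states a 2-fold limit at *p* under 0.05 for its PTH data, without saying whether *p* was adjusted, and reports more genes in both directions. *Smpd3* and *Smpdl3b* met the rule used here with *Slpi*, and *Smpdl3b* met it with PTH. These were again the contrasts that chose them, and nothing is read from it.

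**Figure D4:**
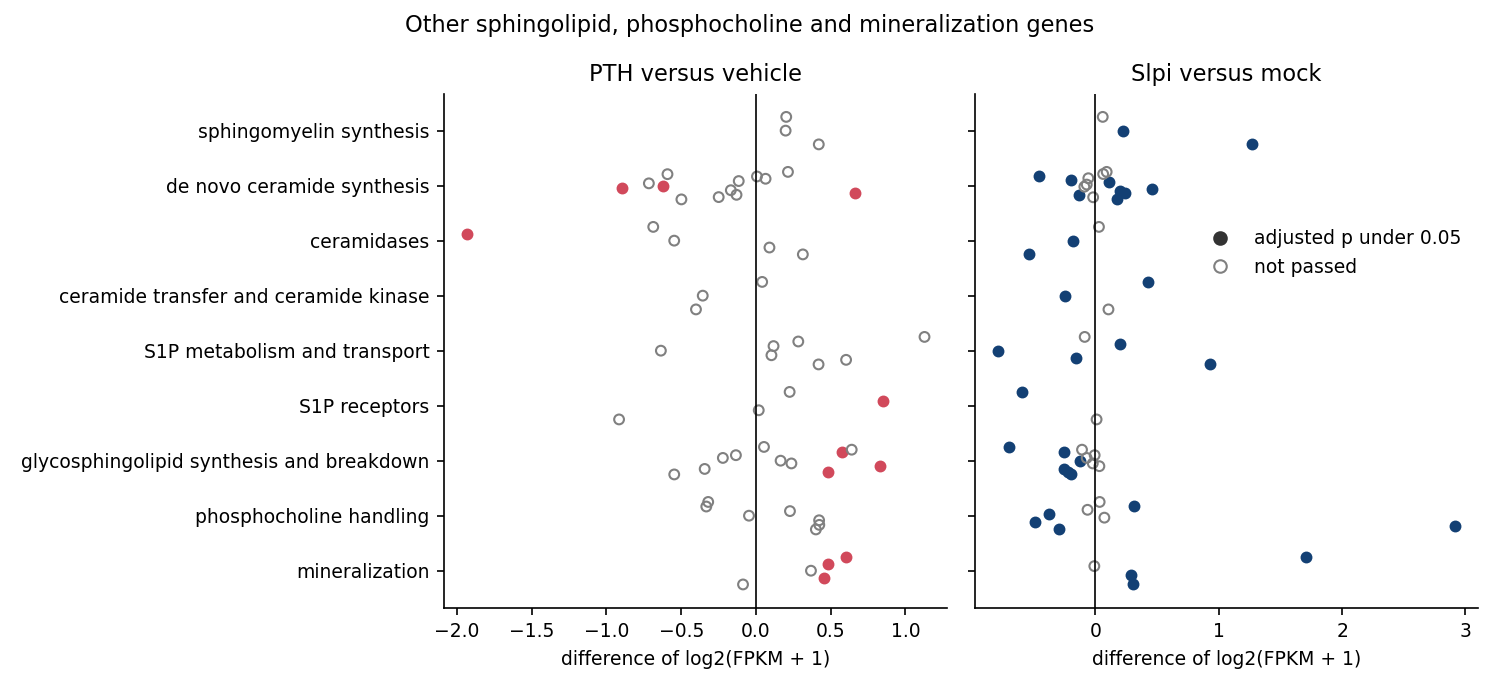
Difference of log2(FPKM + 1) of the tested genes of both lists by function, PTH minus vehicle (left) and Slpi minus mock (right). Filled points passed at an adjusted *p* under 0.05 by limma and open points did not. The filled point farthest left is *Acer2* at -1.93, and the filled points farthest right are *Phospho1* at 2.92, *Alpl* at 1.71 and *Sgms2* at 1.27. *Phospho1* entered the fit through its *Slpi* libraries alone, so its filled mark is not read as a passed test.

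The genes whose pattern was most like that of *Smpd3* were sought among 10095 genes tested in both experiments, by the root mean square difference of log2(FPKM + 1) over the 12 libraries after centring each gene within each experiment. *Abi3*, encoding an adaptor of actin regulation, was the nearest, at 0.063 against a root mean square of 1.24 for *Smpd3* itself. Its mean FPKM was 76.8 with vehicle, 114 with PTH, 0.973 with mock and 21.2 with *Slpi*. The next were *Ifitm5*, an osteoblast membrane protein, at 0.15 and *Ibsp*, encoding bone sialoprotein, at 0.15. *Ibsp* differed by 0.36 with PTH and 3.22 with *Slpi*, and *Ifitm5* by 0.20 and 3.47. *Abi3* overlaps *Phospho1* by 2067 bases on the other strand, so part of the reads of these 2 genes may be shared in the unstranded osteoblast libraries. The same holds in MC3T3-E1 cells if their kit was unstranded, on which labels and paper differ. *Phospho1* also lies within *Zfp652*, a gene on the same strand. For *Smpdl3b*, with a root mean square of 0.67, the nearest were *Pdgfa*, a growth factor chain, at 0.18, *Unc5b*, a netrin receptor, at 0.26 and *Wif1*, a secreted Wnt inhibitor, at 0.27. Their differences were 0.91, 0.68 and 1.26 with PTH and 1.39, 1.04 and 1.61 with *Slpi*. This likeness is a description over 12 libraries in 4 groups.

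**Figure D5:**
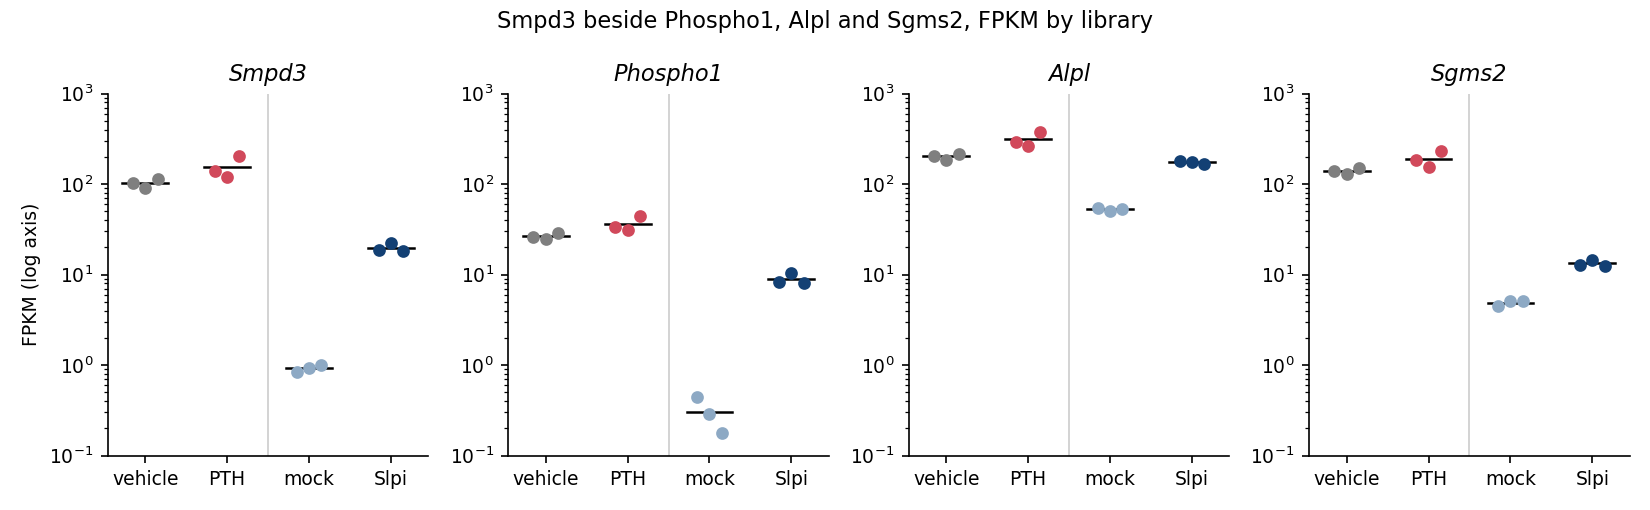
FPKM (log axis) of *Smpd3*, *Phospho1*, *Alpl* and *Sgms2* in the 3 libraries of each group, with the group mean as a bar. In each gene the lowest levels were those of mock cells, and every *Slpi* library lay above every mock library.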

How the data were processed

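RNA-Seq values of 12 libraries were analysed, 3 for each of the vehicle, PTH, mock and *Slpi* groups. Gene-level FPKM were deposited by the authors, 1 value per gene in each library. By the study's methods and the submitters' processing notes, 75-base single-end reads were mapped to mm10 with TopHat2 2.0.13, Bowtie2 2.2.3 and SAMtools 0.1.19, and FPKM were calculated with Cuffnorm of Cufflinks 2.2.1. Its scaling option and gene annotation, and any strand setting, are not given in the sources used here. Each experiment was normalized separately. The osteoblast cDNA was amplified with a SMART-Seq v4 kit, and for MC3T3-E1 cells the labels name a stranded TruSeq kit whereas the paper names the SMART-Seq kit.

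FPKM summed to between 400838.8 and 462460.2 in osteoblast and between 541932.2 and 599746.4 in MC3T3-E1 libraries. Depth in reads is unknown. Relative depths were read from the commonest ratio of low FPKM values between libraries. They were 0.788 to 1.402 in osteoblasts, against vehicle replicate 1, and 0.869 to 1 in MC3T3-E1 cells, against mock replicate 1. Pearson's r of each library with its own group was at least 0.952 and 0.995 across genes.

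Genes that reached an FPKM of 1 in any of the 6 libraries of an experiment were transformed to log2(FPKM + 1) and tested with limma 3.58.1 (lmFit, then eBayes with its trend option, R 4.3.3), without a replicate block. *p* values were adjusted over all genes tested by the Benjamini-Hochberg method. A fold on this scale understates the change of low genes. The model was tested on simulated data. Steps before and after it were run in Python 3.11.15 with pandas 2.3.3 and numpy 2.4.6. The labels do not say that the MC3T3-E1 libraries came from separate cultures, so *p* values measure the spread between these libraries.

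The family and all gene lists were chosen with earlier results of these data known. Named genes were the 6 members, *Slpi*, up to 10 passing sphingolipid genes per experiment with groups that did not overlap by size of difference (some of these are not reported here), 6 genes of the mineralization list, and the 3 genes of most like pattern for *Smpd3* and *Smpdl3b*. *Acer2*, *Kdsr* and the other list genes were matched by current or older symbol. *Smpd5*, *Enpp7*, *Sgms1*, *Chka*, *Pcyt1b*, *Chpt1* and *Slc44a1* and the marker genes were named outside this rule, after their values were seen. Alternatives were a replicate block, other filters, a pseudocount of 0.1, quantile normalization, median centring, no trend, the 2-fold rule of the study and leaving out each library.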

Additional observations from a re-analysis of the deposited data

How the results depend on the processing

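For none of the 6 family genes did the sign of the difference change in either experiment under any of 12 alternatives. Of these values 141 moved by less than 1 SD between replicates and 3 by more, as the pseudocount of 0.1 gave 1.67 for *Smpdl3b* with PTH and 4.27 for *Smpd3* and 1.42 for *Smpdl3b* with *Slpi*. With PTH, leaving out each library gave between 0 and 5 higher and between 0 and 4 lower sphingolipid genes, and between 0 and 2 higher phosphocholine and mineralization genes. That last count was 5 with the replicate block, 1 with quantile normalization and 0 without the trend, and 1 gene of that list was lower with the replicate block and 1 with quantile normalization. The 2-fold rule at an unadjusted *p* gave 1 higher and 1 lower sphingolipid gene and 0 higher genes of the other list with PTH. The higher one was *Mfsd2b*, which did not pass at an adjusted *p* and entered the test through PTH libraries alone. With *Slpi* the rule gave 1 higher and 0 lower sphingolipid genes. Of the other list it gave 2 higher and 0 lower genes, among them *Phospho1* with the limit given above. Of the list counts under all alternatives, 90 stayed within 1.5 times the reported count, 19 fell below it and 3 rose above it, the causes of which were not tested beyond the fewer libraries of the leave-outs. Whether the replicate numbers pair the samples was not settled. With PTH, same-numbered libraries correlated in their deviations weakly, by 0.029 to 0.102, but each best with its own number. With *Slpi* the correlations were -0.052 to 0.039, and not every library was best with its own number. With the replicate block, 1028 genes were higher and 1234 lower with PTH, against 830 and 1151 without it. FPKM give no read numbers, so the lowest levels, *Smpd3* in mock and *Smpdl3b* in vehicle libraries, have an unknown counting error.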

Other observations

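*Mfsd2b*, which encodes an exporter of sphingosine-1-phosphate known from red blood cells and platelets, had the largest positive difference of the sphingolipid list with PTH without passing the test. It was 0.322, 0.136 and 0.481 FPKM with vehicle and 3.60, 2.65 and 0.382 with PTH, and the groups overlapped because PTH replicate 3 lay within the vehicle range. The difference was 1.13 (limma, adjusted *p* = 0.12), and the gene entered the test only through PTH replicates 1 and 2, since no vehicle library reached an FPKM of 1.

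*Degs2* and *Ugcg*, a desaturase and the glucosylceramide synthase of the pathway, were lower in each PTH library than in each vehicle library, at 4.85, 7.20 and 3.33 against 8.53, 9.37 and 8.34 FPKM for *Degs2* and 29.9, 25.4 and 19.8 against 35.6, 43.2 and 31.6 FPKM for *Ugcg*. Neither passed by limma (adjusted *p* = 0.076 and 0.081). *Acer2*, which fell with PTH in osteoblasts, was at most 0.1 FPKM in MC3T3-E1 cells, and *S1pr3*, at 27.1 to 43.0 FPKM in osteoblasts, was at most 0.028 FPKM there. These genes were chosen after their values were seen.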
